A study of Homo sapiens with 6 samples.

Results

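The genes of bone morphogenetic protein (BMP) signalling described here are the ligand genes BMP4, BMP2 and BMP7, the antagonist gene GREM1, the inhibitor genes BAMBI, SMAD6 and SMAD7, and the target genes ID1, ID2 and ID3. Their transcripts were measured in M5 and SW480 cells on Affymetrix U133 Plus 2.0 arrays, with 3 arrays for each population that the labels call biological replicates. SW480 is an established human colorectal cancer line. M5 is a subpopulation of SW480 with a raised ability to metastasise to liver, obtained by selection in an animal. Both populations were grown in RPMI medium with fetal bovine serum, and no further treatment is named. The animal, the number of selection rounds and whether M5 descends from 1 clone are not stated in the labels used here. Members were taken as every probe set whose only gene symbol in the platform annotation is 1 of these 10 symbols, which gave 19 of 54613 probe sets, or 10 of 19775 genes. M5 was set against SW480, its parental line.

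BMPs are secreted ligands that bind paired serine/threonine kinase receptors at the cell surface. The active receptors phosphorylate SMAD1, SMAD5 and SMAD9, which enter the nucleus with SMAD4 and switch on genes such as the ID genes, whose products are dominant-negative partners of basic helix-loop-helix factors. The same signal also induces SMAD6, SMAD7 and BAMBI, which dampen it, and GREM1 and similar proteins hold the ligands outside the cell. In the intestinal crypt, BMP signalling is strongest towards the differentiated end, and stromal cells around the crypt base secrete antagonists.

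RefSeq promoter windows of assembly GRCh38.p14, which run from 250 bases before to 50 bases after an annotated start, were found for 8 of the 10 genes, with 13 windows in all. They were searched on both strands for GGCGCC, a GC-rich element bound by BMP-activated SMADs, for CAGAC, a SMAD-binding element, and for GTCTAGAC, the palindromic SMAD-binding element. Of all 35116 windows of the same length, 19.2% hold GGCGCC, 45.3% hold CAGAC and 0.202% hold GTCTAGAC. The 4 windows printed here are shown because BMP4 carries the largest difference between the populations, BAMBI has the most GGCGCC copies among the genes with a window, SMAD6 has the palindrome, and ID3 is a target that differed on the brighter arrays. They lie at chr14:53955001-53955300 on the minus strand for the most upstream of the 3 BMP4 starts, chr10:28677271-28677570 on the plus strand for BAMBI, chr15:66701986-66702285 on the plus strand for SMAD6 and chr1:23559452-23559751 on the minus strand for ID3. Each is written 5′ to 3′ along its gene, and capitals mark the motifs, which do not overlap in these windows.
BMP4: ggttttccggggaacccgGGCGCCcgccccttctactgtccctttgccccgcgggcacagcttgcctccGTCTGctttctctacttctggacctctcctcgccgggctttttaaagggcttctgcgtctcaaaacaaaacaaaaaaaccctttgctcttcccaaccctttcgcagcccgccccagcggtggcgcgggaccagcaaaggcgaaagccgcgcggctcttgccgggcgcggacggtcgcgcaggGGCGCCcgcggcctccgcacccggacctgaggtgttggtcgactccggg
BAMBI: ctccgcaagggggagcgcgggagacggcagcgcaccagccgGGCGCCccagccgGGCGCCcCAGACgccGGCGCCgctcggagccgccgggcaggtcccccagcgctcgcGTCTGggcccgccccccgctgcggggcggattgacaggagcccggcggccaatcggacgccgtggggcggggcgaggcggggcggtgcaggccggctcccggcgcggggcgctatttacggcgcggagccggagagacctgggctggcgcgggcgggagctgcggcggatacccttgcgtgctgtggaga
SMAD6: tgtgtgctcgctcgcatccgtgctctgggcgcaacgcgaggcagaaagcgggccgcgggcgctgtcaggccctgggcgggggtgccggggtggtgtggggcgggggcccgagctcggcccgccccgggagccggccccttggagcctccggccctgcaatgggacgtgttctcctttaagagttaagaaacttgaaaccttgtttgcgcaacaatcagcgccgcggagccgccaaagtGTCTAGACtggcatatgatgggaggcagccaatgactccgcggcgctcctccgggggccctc
ID3: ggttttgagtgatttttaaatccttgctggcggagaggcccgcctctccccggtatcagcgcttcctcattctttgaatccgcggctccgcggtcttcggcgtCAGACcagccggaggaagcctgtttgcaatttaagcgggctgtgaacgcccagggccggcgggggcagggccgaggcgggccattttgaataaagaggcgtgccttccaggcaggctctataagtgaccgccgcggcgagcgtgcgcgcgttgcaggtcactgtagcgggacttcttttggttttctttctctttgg
The most upstream BMP4 window has GGCGCC at positions 19 and 252, counted from its 5′ end, and the motif is in neither of the other BMP4 windows. BAMBI has it at positions 42, 55 and 70. The SMAD6 window holds GTCTAGAC at position 239, and ID3 holds CAGAC at position 104. None of the 3 motifs was found in the windows of ID1 and ID2. A match in a window is a description of its letters, and these arrays measured no binding.

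The 6 arrays differed in brightness, with 2% trimmed mean signals of 27.2 to 67.7 on M5 arrays and 21.1 to 87.1 on SW480 arrays, so they were quantile normalised. All signals given below are these normalised values. M5 replicate 1 and SW480 replicate 1 were the dimmest arrays and are called the dimmer pair. The other 4 are called the brighter arrays. A control for 18S ribosomal RNA divided the arrays differently, with signals of 3581.8 on M5 replicate 1 and 2823.9 and 4163.4 on SW480 replicates 1 and 2, against 208.6 and 234.1 on M5 replicates 2 and 3 and 96.3 on SW480 replicate 3. M5 replicates 2 and 3 correlated at r = 0.994 over the brightest 5461 probe sets, where the other pairs of arrays had r of 0.894 to 0.958. They were therefore counted as 1 sample in the means and SDs below (n = 2 for M5), while the fit over 6 arrays keeps them apart as the labels do. P-values measure only the spread between these arrays. The number of arrays limits the precision, and the table carries no detection calls.

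In the fit over all 6 arrays, 0 of the 10 genes were called higher or lower in M5 by limma at an adjusted p of 0.05. The same fit called 0.0562% of 14243 genes higher and 0.0421% lower. BMP4, SMAD7 and ID3 were lower in M5 at an unadjusted p under 0.05, as were 6.12% of all genes, and no member was higher at that level, as were 5.43% of all genes. Of the 19 probe sets, 13 passed the filter on low signals and were tested, and they represent 8 genes. Both BMP2 and both GREM1 probe sets and 2 of the 4 SMAD6 probe sets were too dim to be tested. The 8 tested genes had a median log2 fold change of -0.96, against -0.01 over all genes tested. That median covers only the tested genes and supports no statement on the whole set.

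BMP4, a ligand of the pathway, had the lowest log2 fold change of the 8 tested genes. Its signal was 70.8, 5.08 and 8.15 on the M5 arrays, in replicate order, against 116, 93.1 and 96.8 on the SW480 arrays. Every M5 array lay below every SW480 array, as for 8.36% of all genes in this direction, and the SW480 arrays lay close together while M5 replicate 1 stood far above the other M5 arrays. The mean was 38.7 ± 45.4 (SD, n = 2) in M5 and 102 ± 12.2 (SD, n = 3) in SW480. The log2 fold change was -2.61 with a standard error (SE) of 0.70 and a limma adjusted p of 0.305, and its 95% interval ran from -4.15 to -1.06. Fold changes are on the scale of log2(signal + 1.7) and understate differences between low signals. Only 8 of the 14243 genes had a lower log2 fold change than BMP4, though 194 had a smaller p. With M5 replicates 2 and 3 averaged, the log2 fold change was -2.08 and the limma adjusted p 0.849. In bulk RNA, fewer cells with the transcript and less transcript per cell cannot be told apart.

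The BMP4 difference was not of the same size in each subset of arrays. It was -3.56 on the brighter arrays and -0.70 on the dimmer pair, on the log2 scale. Between arrays of high 18S control signal it was -0.54, and between arrays of low 18S signal -3.59. M5 replicate 1 belongs to both the dimmer pair and the high 18S arrays, so the M5 side of these comparisons is the same array. With the dimmer pair as a block the limma adjusted p was 0.0924, and with the 18S control as a block it was 0.369. Leaving out M5 replicate 1 alone gave a log2 fold change of -3.66 (limma adjusted p = 0.00614), and leaving out M5 replicate 2 alone gave -1.95 (limma adjusted p = 0.827). Without M5 replicate 1 the M5 side is replicates 2 and 3 alone, the arrays counted as 1 sample above, so that p rests on the small spread between them. The part of array brightness in the difference was not tested further.

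**Figure D1:**
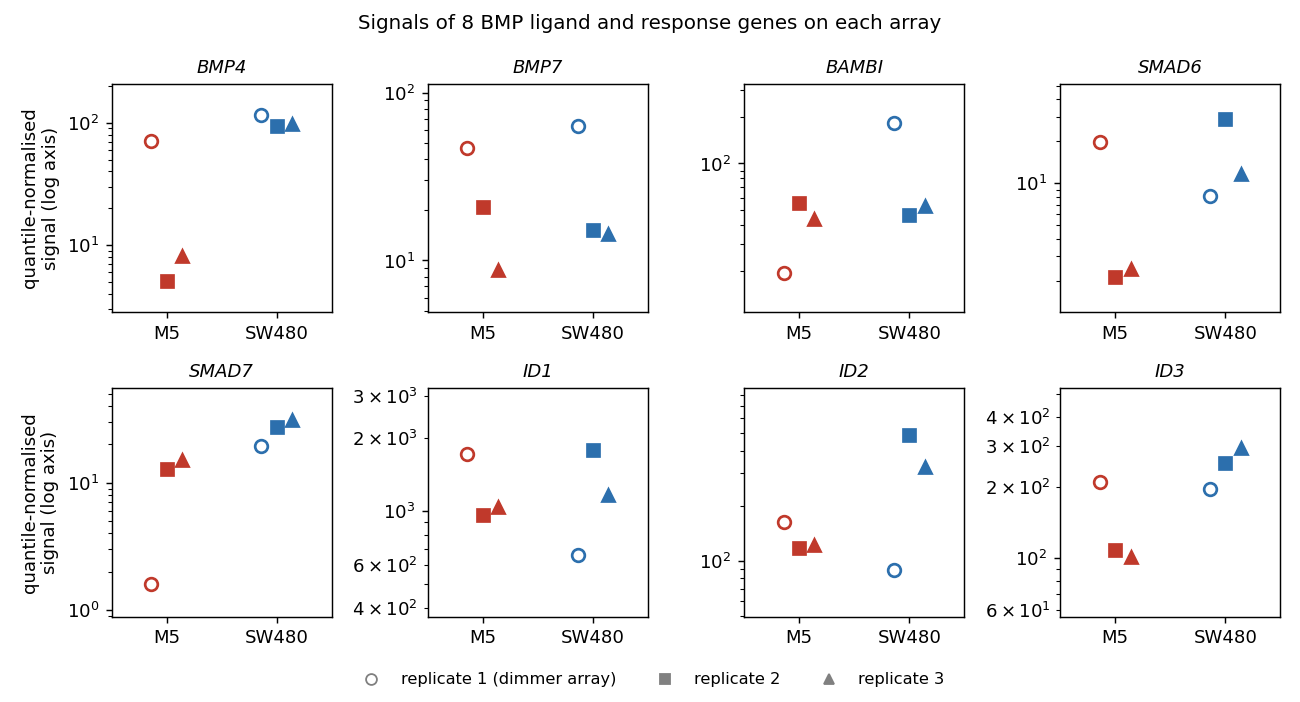
Quantile-normalised signals (log axis) of the brightest tested probe set of 8 genes, with M5 arrays left and SW480 arrays right in each panel, 1 point per array; open circles are the dimmer arrays. For BMP4 and SMAD7 all M5 points lie below all SW480 points, while for the other genes the groups overlap, and for ID2 and ID3 the open circle of M5 stands above that of SW480.

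The other ligand genes were at low signals. BMP7, a ligand best known from kidney and bone development, has 4 tested probe sets, whose log2 fold changes were -0.38, 0.28, -0.20 and 0.18, with SEs of 0.41, 0.43, 0.65 and 0.54. The probe sets therefore disagreed in sign, and each difference lay within its SE. The brightest of them had signals of 46.7, 20.9 and 8.83 on the M5 arrays, in replicate order, against 62.8, 15.2 and 14.4 on the SW480 arrays, a log2 fold change of -0.20 with a limma adjusted p of 0.941 and a 95% interval of -1.63 to 1.23. On both sides replicate 1 was the highest array. BMP2, a close relative of BMP4, had signals of 0.7 to 14.0 on M5 arrays and 0.333 to 5.52 on SW480 arrays over its 2 probe sets, which rank at percentiles 16.0 and 18.4 of mean signal. The highest BMP2 signal on both probe sets came from M5 replicate 3. Without detection calls these levels set no firm fold.

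GREM1, a secreted antagonist that binds BMP2, BMP4 and BMP7, was at the bottom of the scale. Its 2 probe sets had signals of 0.233 to 2.95 on M5 arrays and 1.43 to 11 on SW480 arrays, and they rank at percentiles 11 and 19.1. The groups overlapped on both probe sets, and neither was tested.

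SMAD7 and SMAD6 encode inhibitory SMADs that compete for activated receptors and recruit ubiquitin ligases. SMAD7 had signals of 1.6, 12.7 and 15.2 on the M5 arrays, in replicate order, against 19.6, 27.7 and 30.9 on the SW480 arrays. All M5 arrays were below all SW480 arrays, and M5 replicate 1 was the lowest. The mean was 7.79 ± 8.75 (SD, n = 2) in M5 and 26.1 ± 5.85 (SD, n = 3) in SW480, and the log2 fold change was -1.55 (limma adjusted p = 0.446, SE 0.62). The difference was -0.99 on the brighter arrays and -2.69 on the dimmer pair, and -2.92 and -1.06 between arrays of high and of low 18S signal. SMAD7 and BMP4 were thus lower in M5 in each of these subsets, a direction that follows from groups that do not overlap. The SMAD7 values of -2.69 and -2.92 both rest on M5 replicate 1, whose signal of 1.6 lies below the pseudocount of 1.7. The size of the SMAD7 difference therefore depends on the pseudocount. Over all arrays the log2 fold change was -1.8 with a pseudocount of 0.425 and -1.08 with 6.8.

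SMAD6 gave no common direction over its 4 probe sets. The brightest had signals of 19.8, 2.15 and 2.43 on the M5 arrays, in replicate order, against 8.12, 28.8 and 11.7 on the SW480 arrays, a log2 fold change of -1.18 (limma adjusted p = 0.632, SE 0.76). M5 replicates 2 and 3 were the lowest arrays and M5 replicate 1 the second highest, so the difference was -2.34 on the brighter arrays and 1.13 on the dimmer pair. The other tested probe set had a log2 fold change of -0.01 (SE 0.82). The 2 untested probe sets were dim, and on 1 of them all M5 signals (1.93 to 12.4) lay above all SW480 signals (0.7 to 1.77), which are around the pseudocount.

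BAMBI encodes a pseudoreceptor that lacks the kinase domain and blocks signalling by BMP and TGF-beta receptors. Its signals were 19.5, 55.4 and 43.9 on the M5 arrays, in replicate order, against 183, 46.3 and 53.1 on the SW480 arrays. The 4 brighter arrays lay between 43.9 and 55.4 in both populations, and the dimmer pair held the lowest and the highest signal. The log2 fold change over 6 arrays was -1.04 (limma adjusted p = 0.538, SE 0.53). It was made up of a difference of -3.12 on the dimmer pair and -0.01 on the brighter arrays.

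**Figure D2:**
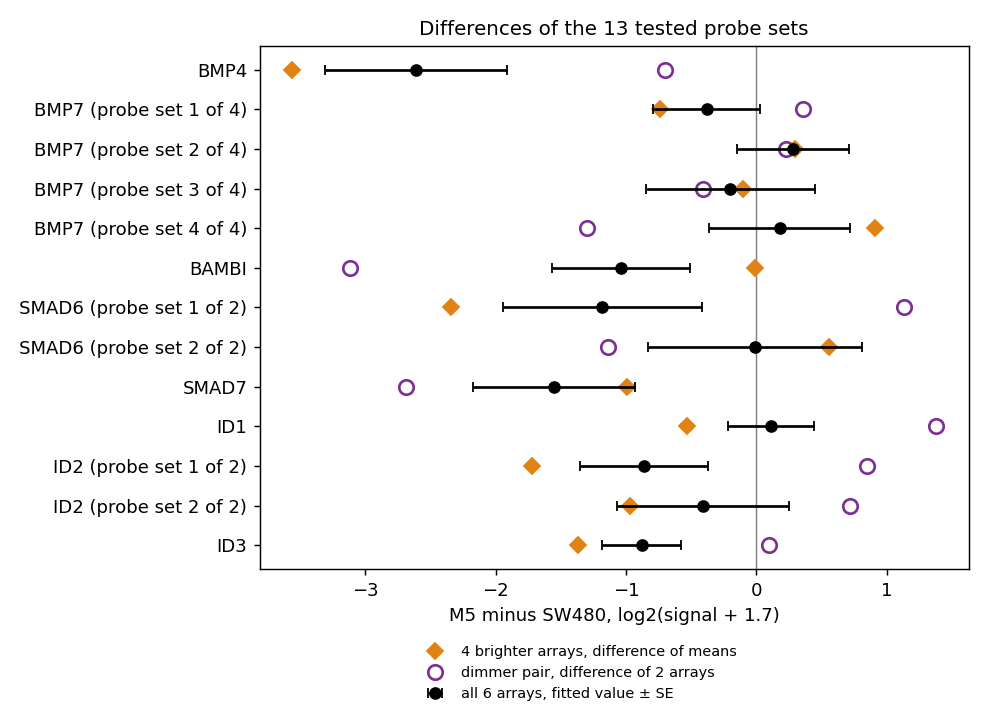
M5 minus SW480 differences of log2(signal + 1.7) for the 13 tested probe sets; black points with bars are values fitted over 6 arrays ± SE, diamonds the 4 brighter arrays and open circles the dimmer pair. BMP4 and SMAD7 lie left of 0 in all 3 values. ID1, ID3, both ID2 probe sets, both SMAD6 probe sets and some BMP7 probe sets lie on opposite sides of 0 on the brighter arrays and the dimmer pair.

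The ID genes encode helix-loop-helix proteins without a DNA-binding region and are a widely used readout of BMP signalling. ID1 was among the bright transcripts in both populations, with signals of 1731, 971 and 1040.5 on the M5 arrays, in replicate order, against 663, 1795 and 1168 on the SW480 arrays. The SW480 range enclosed the M5 range, and SW480 replicate 1 was the lowest array. The mean was 1368 ± 513 (SD, n = 2) in M5 and 1209 ± 567 (SD, n = 3) in SW480. The log2 fold change was 0.11 (limma adjusted p = 0.937, SE 0.33), with a 95% interval of -0.61 to 0.83. Changes of ID1 within that interval in either direction could not be told apart from none.

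ID3 had signals of 211, 108 and 101 on the M5 arrays, in replicate order, against 197, 254 and 295 on the SW480 arrays. M5 replicates 2 and 3 were the lowest arrays, and M5 replicate 1 lay above SW480 replicate 1. The mean was 158 ± 75.2 (SD, n = 2) in M5 and 249 ± 49.4 (SD, n = 3) in SW480, and the log2 fold change was -0.88 (limma adjusted p = 0.39, SE 0.30). ID2 had signals of 162, 117 and 122 on the M5 arrays, in replicate order, against 89.1, 489 and 323 on the SW480 arrays, a log2 fold change of -0.86 (limma adjusted p = 0.585, SE 0.49). SW480 replicate 1 was the lowest array of all and SW480 replicates 2 and 3 the highest. The second ID2 probe set, with a log2 fold change of -0.41 (SE 0.66), showed the same order of SW480 arrays. Leaving out SW480 replicate 1 alone gave the first probe set a log2 fold change of -1.57 (limma adjusted p = 0.0356), and leaving out SW480 replicate 2 alone gave -0.36 (limma adjusted p = 0.898).

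Without the dimmer pair, BMP4, ID2 and ID3 were lower in M5 and none of the 10 genes was higher. That fit over 4 arrays called 4.4% of 14155 genes higher and 5.49% lower. Its log2 fold changes were -3.56 (limma adjusted p = 0.00109, SE 0.33) for BMP4, -1.72 (limma adjusted p = 0.0033, SE 0.22) for ID2 and -1.37 (limma adjusted p = 0.00419, SE 0.18) for ID3. The ID2 value is that of its brightest probe set. The second ID2 probe set had -0.97 in this fit and did not pass (limma adjusted p = 0.146, SE 0.37). SMAD6 (-2.34, limma adjusted p = 0.0756), SMAD7 (-0.99, limma adjusted p = 0.122) and ID1 (-0.53, limma adjusted p = 0.134) did not pass. With M5 replicates 2 and 3 averaged as well, which leaves 1 M5 sample assumed to vary like the SW480 arrays, limma adjusted p was 0.000716 for BMP4, 0.0274 for ID2 and 0.0562 for ID3, where 0.89% of genes were called higher and 1.31% lower. On the dimmer pair, ID1, ID2 and ID3 differed the other way or hardly at all, by 1.38, 0.85 and 0.10. Of all genes tested over 6 arrays, 25% were lower and 25.6% higher in M5 on both the brighter arrays and the dimmer pair, so about as many genes kept their sign between these sets as changed it.

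**Figure D3:**
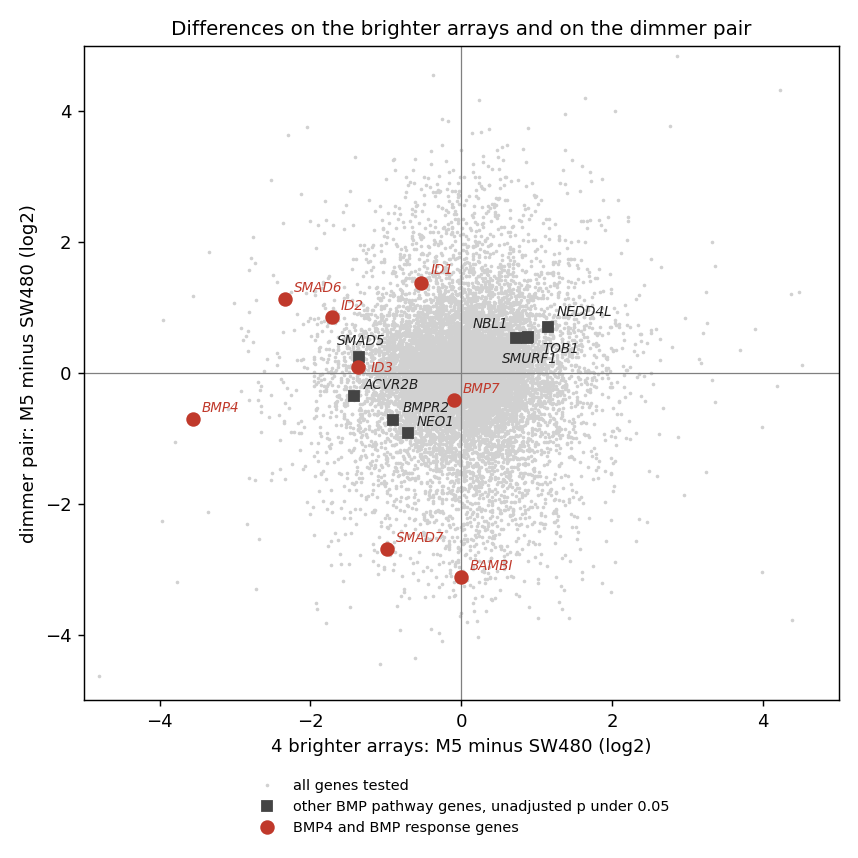
M5 minus SW480 log2 differences on the 4 brighter arrays (horizontal axis) and on the dimmer pair (vertical axis), 1 point per gene, with 5 genes beyond the axes. BMP4 and SMAD7 lie in the lower left, ID1, ID2, ID3 and SMAD6 in the upper left, and BAMBI differs on the dimmer pair alone.

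Further genes of the pathway came from 5 lists by role, with 84 genes, of which 79 have a probe set of their own and 63 were tested. In the fit over 6 arrays limma called 0 of the 63 in either direction. Without the dimmer pair it called 1 higher (NEDD4L) and 2 lower (SMAD5 and BMPR2), and 0 in either direction when M5 replicates 2 and 3 were averaged as well. At an unadjusted p under 0.05, 4 were higher and 4 lower, 6.35% each, against 5.43% and 6.12% of all genes. The median log2 fold change of the 63 genes was -0.05, against -0.01 over all genes. BMPR1A, a main type I receptor gene for BMP4, was not analysed here.

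Among 10 tested receptor and co-receptor genes, ACVR2B, BMPR2 and NEO1 were lower in M5 at an unadjusted p under 0.05 and none was higher. Of all genes, 6.12% were lower and 5.43% higher at that level, and of the 63 genes of all lists 4 were lower and 4 higher. The list median was -0.48. BMPR2, the type II receptor most specific for BMPs, had signals of 33.1, 67.5 and 56.4 on the M5 arrays, in replicate order, against 55.4, 119 and 114 on the SW480 arrays. M5 was lower at each level of brightness, but M5 replicates 2 and 3 lay above SW480 replicate 1. Its log2 fold change was -0.84 (limma adjusted p = 0.483, SE 0.38), and without the dimmer pair it was -0.90 (limma adjusted p = 0.0392), which did not pass once M5 replicates 2 and 3 were also averaged (limma adjusted p = 0.246). The most variable BMPR2 probe set had -0.31 over 6 arrays (limma adjusted p = 0.922). ACVR2B, a type II receptor shared by activins and BMPs, had a log2 fold change of -1.06 (limma adjusted p = 0.43, SE 0.41) on its brightest probe set and 0.63 on its most variable one. NEO1, the neogenin gene, whose product binds the BMP co-receptors of the RGM family, had signals of 30.8, 30.5 and 24.3 on the M5 arrays against 59.7, 40.9 and 51.1 on the SW480 arrays. The NEO1 groups did not overlap, and the log2 fold change was -0.78 (limma adjusted p = 0.453, SE 0.32). HJV (-1.34, SE 0.72) and ACVRL1 (1.16, SE 0.77) had the largest fitted values of this list, at low signals.

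The 14 tested SMAD and SMAD regulator genes had a median log2 fold change of 0.09, with NEDD4L, TOB1 and SMURF1 higher and SMAD5 lower at an unadjusted p under 0.05. Of all genes, 5.43% were higher and 6.12% lower at that level. NEDD4L encodes a ubiquitin ligase that acts on activated SMADs. Its signals were 121, 157 and 138 on the M5 arrays, in replicate order, against 73.5, 62.9 and 67.6 on the SW480 arrays. The groups were well apart, and the log2 fold change was 1.0 (limma adjusted p = 0.269, SE 0.25), with 0.71 on the dimmer pair and 1.15 on the brighter arrays. Without the dimmer pair the limma adjusted p was 0.0132, and 0.13 once M5 replicates 2 and 3 were also averaged. The most variable NEDD4L probe set had a log2 fold change of only 0.28 over 6 arrays (SE 0.95). SMURF1, a ubiquitin ligase gene that targets SMAD1, SMAD5 and BMP receptors, had a log2 fold change of 0.67 (limma adjusted p = 0.469, SE 0.29) and TOB1, whose product represses SMAD-driven transcription, one of 0.77 (limma adjusted p = 0.315, SE 0.22). All M5 arrays lay above all SW480 arrays for both genes, as for 7.74% of all genes in this direction. SMAD5, a receptor-activated SMAD of the BMP branch, had signals of 194, 86.5 and 82.9 on the M5 arrays against 164, 282 and 172 on the SW480 arrays (log2 fold change -0.83, SE 0.35, limma adjusted p = 0.461). As for ID3, M5 replicates 2 and 3 were the lowest arrays. Without the dimmer pair its log2 fold change was -1.36 (limma adjusted p = 0.0143); averaging M5 replicates 2 and 3 on top of this gave an adjusted p of 0.0908. ZNF423, a SMAD co-factor gene, was at -1.02 in log2 (SE 0.63) at low signals. SMAD4, the common partner, had signals of 189.7, 144 and 132 on the M5 arrays against 132, 157 and 201 on the SW480 arrays, a log2 fold change of -0.07 (limma adjusted p = 0.954, SE 0.25).

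Among 11 tested antagonists and modulators the median log2 fold change was 0.00. NBL1, a secreted antagonist of the DAN family, to which GREM1 belongs, had signals of 94.6, 76.3 and 74.2 on the M5 arrays against 64.8, 40.6 and 40.025 on the SW480 arrays. All M5 arrays were the higher ones, with a log2 fold change of 0.76 (limma adjusted p = 0.443, SE 0.30). FSTL3 (0.73, SE 0.33) and FST (0.68, SE 0.43), which encode follistatin-like and follistatin antagonists, had the next largest values and did not pass. Of 10 other ligand genes, none had an unadjusted p under 0.05, and the largest values, -0.59 for GDF5, -0.36 for GDF7 and -0.36 for GDF9, lay within their SEs of 0.77, 0.70 and 0.80. Of 18 other target genes, none had an unadjusted p under 0.05 either, with a median of -0.06. RUNX2 (0.83, SE 0.49), GATA2 (-0.75, SE 0.42), HEY1 (0.68, SE 0.52) and MSX1 (-0.68, SE 0.37), all genes of transcription factors, had the largest values there.

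**Figure D4:**
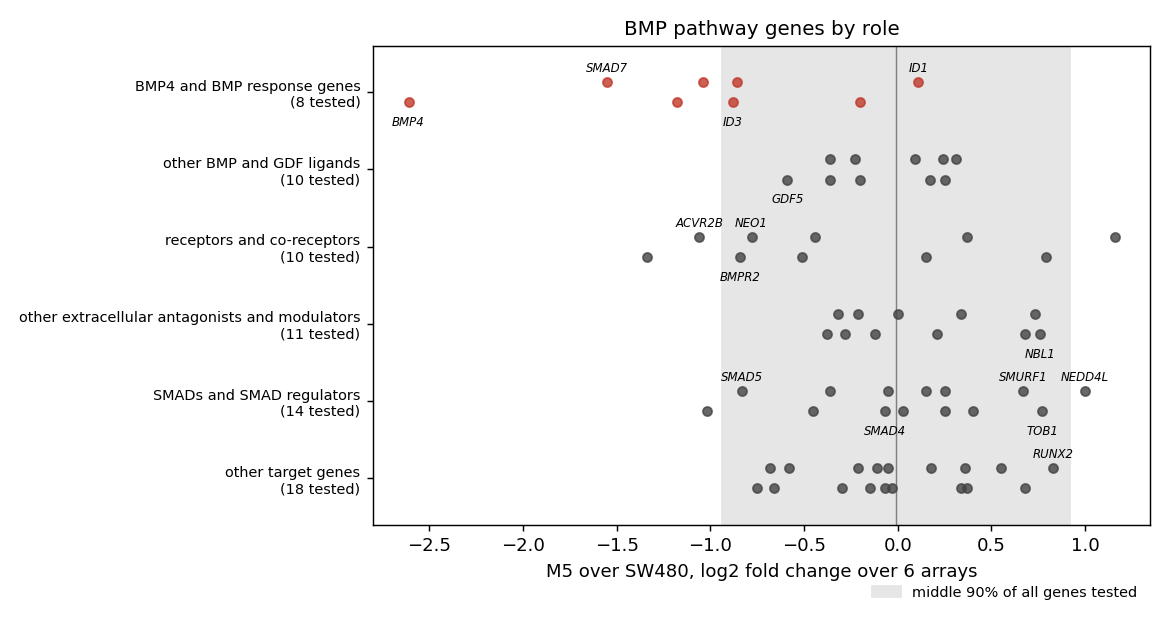
Log2 fold changes of M5 over SW480 fitted over 6 arrays, 1 point per tested gene, by role in the pathway; the grey band holds the middle 90% of all genes tested. BMP4, at -2.61, lies far left of the band, and none of the 71 points passed the adjusted threshold.

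BMP4 lies on chromosome 14. Of the 3 nearest tested genes on each side, DDHD1, a phospholipase gene and the nearest on its side, had the largest difference. DDHD1 had signals of 135, 61.7 and 85.5 on the M5 arrays, in replicate order, against 127, 173 and 209 on the SW480 arrays, a log2 fold change of -0.88 (limma adjusted p = 0.405, SE 0.32). M5 replicates 2 and 3 were the lowest arrays, and without the dimmer pair the log2 fold change was -1.37 (limma adjusted p = 0.0101), which did not pass with M5 replicates 2 and 3 averaged as well (limma adjusted p = 0.0659). The other 5 neighbours, GNPNAT1, FERMT2, CDKN3, CNIH1 and GMFB, had log2 fold changes from -0.22 to 0.26 and limma adjusted p of 0.787 to 0.975.

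The genes whose signals followed BMP4 most closely over the 6 arrays, among 7121 genes brighter than the median, were ZBTB21, CHSY1, HERC4, KRR1 and DCBLD2, with Pearson's r of 0.988 to 0.995. Those that ran most opposite to it were SLC25A33, LITAF, KCTD9, ALAS1 and MCUB, with r of -0.995 to -0.992. Across the same arrays r with BMP4 was 0.93 for ID3, 0.845 for SMAD6, 0.466 for BMP7, 0.446 for ID2, 0.203 for ID1, 0.183 for BAMBI and 0.12 for SMAD7. The points share their arrays and the contrast between populations, and no p and no share of all genes with such r is given. BMP4 was at 5.08 and 8.15 on M5 replicates 2 and 3, and at 70.85 or more on the other arrays. A gene that is low on M5 replicates 2 and 3 alone can therefore reach a high r. ID3 and the brightest SMAD6 probe set were also lowest on these arrays, which were counted as 1 sample above. The other SMAD6 probe sets gave no common direction. ZBTB21, a zinc finger gene, had signals of 151, 57.2 and 74.8 on the M5 arrays, in replicate order, against 193, 189 and 192 on the SW480 arrays, with the same high M5 replicate 1 as BMP4. SLC25A33, a mitochondrial carrier gene, had 285, 629 and 567 on the M5 arrays against 215, 264 and 251 on the SW480 arrays, the reverse order.

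Epithelial identity was checked with 15 colorectal epithelial markers. EPCAM, KRT8 and KRT18 were bright on all arrays, and the summed signal of the list was 12047 to 12717 on M5 arrays and 9346 to 13389 on SW480 arrays. The intestinal genes CDX1, CDX2 and MUC2 were low in both, with at most 11.9 on M5 arrays and 17.0 on SW480 arrays. KRT20 was higher, with 23.7 to 40.6 on M5 arrays and 42.8 to 57.5 on SW480 arrays, and LGALS4 reached 66.4 on SW480 replicate 1. As GREM1 and other antagonists come from stroma in tissue, markers of other cells were read as well: the sums were 208 to 265 in M5 and 255 to 409 in SW480 for 10 fibroblast genes, 23.3 to 37.2 and 27.0 to 42.0 for 6 endothelial genes, and 83.1 to 189.6 and 17.2 to 115 for 5 leukocyte genes. For 8 hepatocyte genes the sums were 97.4 to 574 in M5 and 81.0 to 317 in SW480. The ranges of the sums overlapped for every one of these lists, and no marker of them stayed at or under the pseudocount on all arrays. Of the 44 single markers, 3 were above SW480 on every M5 array (TTR, ELF3 and CEACAM5) and 2 below (COL3A1 and KRT20). Among all genes tested, 7.74% lay wholly above and 8.36% wholly below, so such separation was common over the whole array. TTR, a hepatocyte gene, had signals of 195.7, 73.1 and 5.68 on the M5 arrays against 5.17, 1.67 and 1.43 on the SW480 arrays (log2 fold change 3.52, SE 0.97, limma adjusted p = 0.307). FGB, another hepatocyte gene, was highest on M5 replicate 1, at 202, and 9.33 to 23.8 on the other M5 arrays against 1.67 to 11 on the SW480 arrays. Of the other listed hepatocyte genes, SERPINA1 went the other way (log2 fold change -0.47, limma adjusted p = 0.812). APOA1 was at 0.02 and APOA2 at 0.62 (limma adjusted p of 0.995 and 0.837). ALB, AHSG and TF were too dim to be tested. LYZ had the highest signal of the leukocyte list, and its groups overlapped. It was at 63.9, 147 and 161 on the M5 arrays, in replicate order, against 73.5, 1.22 and 23.5 on the SW480 arrays. The LYZ log2 fold change was 2.72 (SE 0.91, limma adjusted p = 0.381), with -0.20 on the dimmer pair and 4.18 on the brighter arrays. The log2 fold changes of ELF3, an epithelial transcription factor gene, and COL3A1, a fibroblast collagen gene, were 1.46 and -1.31 (limma adjusted p of 0.0933 and 0.288). Their part in the differences of the BMP genes was not tested.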

How the data were processed

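Total RNA of M5 and SW480 cells was measured on 6 Affymetrix arrays. The authors deposited a linear-scale intensity for each probe set, made with GCOS 1.4 per the submitters' processing notes. Its settings, scaling target, detection calls and genome build are not stated in the labels used here. Of 54675 probe sets, 62 controls were left out of the tests. Symbols came from the platform annotation of 2016, and probe sets with several symbols or none named no gene.

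The 2% trimmed means differed by up to 4.12 times between arrays, so the intensities were quantile normalised. A pseudocount of 1.7, the 20th percentile of the deposited values, was added before log2. A filter removed the lowest 40% by mean log2 signal and kept 32768 probe sets. M5 was compared with SW480 by limma 3.58.1 (lmFit, eBayes with trend, R 4.3.3), two-sided, Benjamini-Hochberg adjusted over all kept probe sets, at 0.05. The brightest kept probe set stood for its gene. Named were all 10 members, the 3 genes of largest absolute log2 fold change in each list and any called, SMAD4, BMPR1A and BMPR2, the 5 genes most and 5 least correlated with BMP4, and 3 tested neighbours of BMP4 on each side. SMURF1, TOB1 and NEO1 (for an unadjusted p under 0.05), MSX1 (equal in size to HEY1) and single markers fall outside this rule and were named after their values were seen. Members and lists were chosen with earlier results of these data known.

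Alternatives changed the scaling, pseudocount, filter, variance model, probe set and arrays. The fits with array blocks, and the fit without the dimmer pair with M5 replicates 2 and 3 averaged, were chosen after the data were seen. Over all kept probe sets, deviations from the group means of arrays with equal replicate numbers correlated at 0.107, 0.0156 and 0.0707. These low values gave no pairing by replicate number. On the brightest 5461 probe sets, however, M5 replicate 1 and SW480 replicate 1 had r = 0.952. Each had lower r with the arrays of its own population, 0.935 and 0.933 for M5 and 0.909 and 0.913 for SW480. Figures were drawn with matplotlib 3.10.9.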

Additional observations from a re-analysis of the deposited data

How the results depend on the processing

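Across 20 alternatives, members called lower in M5 numbered 3 without the 2 dimmest arrays (BMP4, ID2, ID3), 2 when M5 replicates 2 and 3 were also averaged (BMP4, ID2), and 0 to 1 when 1 array was left out, BMP4 without M5 replicate 1 and ID2 without SW480 replicate 1. None of the alternatives called a member higher. BMP4, SMAD6, SMAD7, ID2 and ID3 kept a negative log2 fold change in every alternative that tested them. BAMBI did so in sign only, as it was -0.01 (SE 0.26) without the 2 dimmest arrays. For BMP4 and SMAD7 the groups do not overlap, so leaving out or averaging arrays could not turn the sign. BMP4, BAMBI, SMAD7 and ID3 have 1 probe set each, so the choice of probe set could not move them. For SMAD6 all alternatives used the same probe set, and its other probe sets gave no common direction. BMP4 ranged from -3.66 to -1.95. Outside the fit that left 1 M5 sample, its limma adjusted p ran from 0.00109 to 0.849. Over all genes, 8 were higher and 6 lower. Lower genes were 3 without scaling and 11 without a filter, and higher genes were 5 with arrays centred on the median and 5 with the smaller pseudocount. Limma without the trend gave 0 and 0 genes, against 568 and 616 at an unadjusted p under 0.05. Averaging M5 replicates 2 and 3 gave 1 higher and 3 lower, the dim-array block 31 and 17, no dimmest arrays 623 and 777, and these with averaging 126 and 186. Leaving out 1 array gave 0 to 87 higher and 2 to 111 lower, where leaving out SW480 replicate 1 gave 79 and 37, leaving out M5 replicate 1 gave 87 and 111, and each other array at most 3 higher and 4 lower. The replicate block gave 0 members in either direction and 10 genes higher and 8 lower, and BMP4 an adjusted p of 0.18.

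Signs turned for some genes. With the most variable probe set, the log2 fold change was 0.63 for ACVR2B, -0.18 for FST, 1.21 for GATA2 and 0.55 for SMAD4. With M5 replicates 2 and 3 averaged it was 0.07 for BMP7 and 0.01 for SMAD4, and with the 18S control block 0.24 for BMP7 and 0.11 for GDF7. Without the 2 dimmest arrays, with or without averaging, it was -0.53 for ID1, 0.28 for GDF5 and 0.52 for GDF9. Leaving out 1 array gave -0.75 to 0.45 for BMP7, -0.27 to 0.45 for ID1, -1.28 to 0.10 for GDF5, -0.83 to 0.12 for GDF7, -0.99 to 0.31 for GDF9 and -0.22 to 0.09 for SMAD4. What caused these turns was not tested. Without detection calls, signals near the pseudocount, as of BMP2 and GREM1, and of SMAD7 on M5 replicate 1, set no firm level.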
